A study of Mus musculus with 4 samples.

Results

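The mitochondrial ribosomal protein genes were taken as all genes whose mouse symbol is Mrpl or Mrps followed by a number and at most 1 letter. There were 77 such genes among 29247 gene IDs in the count table, of which 28926 had a symbol. Mrpl53 was not analysed here. Of the 77, 50 encode large subunit proteins, Mrps30 and Mrps18a included, since both are now placed in the large subunit, and 26 encode small subunit proteins. Mrps36 carries the name but is now known as a subunit of the oxoglutarate dehydrogenase complex of the citric acid cycle.

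The mitochondrial ribosome translates the few messenger RNAs that are encoded on mitochondrial DNA, all of which specify subunits of the oxidative phosphorylation complexes. Its ribosomal RNAs are made inside the organelle, whereas its proteins are nuclear gene products, named Mrpl for the large and Mrps for the small subunit, that are imported after synthesis in the cytosol. Some of these proteins descend from the ribosome of the bacterial ancestor and others were added in mitochondria. In macrophages, the capacity for oxidative phosphorylation is known to differ between activation states.

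Messenger RNA was sequenced from flow-sorted liver macrophages of C57BL6J mice aged 8 weeks. Cxcr4+ macrophages came from mice killed 72 h after acetaminophen (APAP), given into the peritoneum in saline at 300 mg/kg, and gave 3 libraries. APAP at high dose is a liver toxin that kills hepatocytes. Control macrophages gave 1 library, and the labels name for it neither a saline injection nor a Cxcr4 gate, so that APAP and the sort cannot be told apart. Separate animals are not stated for these libraries. Each p-value sets the difference from the control against the spread among the APAP libraries, estimated in part across genes, and that spread may be technical.

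Total counts were between 48282283 and 56702837 for APAP and 49950909 for the control, and 23376 to 23880 genes had reads after APAP against 18793 in the control. Cxcr4, the chemokine receptor used for the sort, stood at 84.4, 132 and 101 CPM (counts scaled to a common library total) in APAP Cxcr4+ cells against 41.3 CPM in control cells. All 10 Kupffer cell and macrophage markers examined had reads in all libraries. Their summed level was 27210 to 32230 CPM in APAP Cxcr4+ cells against 46880 CPM in control cells, with 6 of 10 lower and 0 higher by edgeR. For 3 of the 10 the control lay below all APAP libraries, with log2 fold changes of up to 0.62. The DESeq2 Wald test called 2 of the 10 higher. As messenger RNA was measured in bulk, fewer cells of a type and less RNA per cell cannot be told apart.

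Most transcripts for proteins of the mitochondrial ribosome were lower in Cxcr4+ macrophages after APAP. Of the 77 genes, 55 (71.4%) fell, and the other 22 did not pass the test. Across all 18715 genes tested, 18.9% were called lower and 25.4% higher at an adjusted p under 0.05 (edgeR quasi-likelihood test, Benjamini-Hochberg adjustment over all genes tested). The count of members called higher was 0 by edgeR, by DESeq2 and by limma-voom, and it was also 0 at an unadjusted p under 0.05. The median log2 fold change of APAP Cxcr4+ over control was -0.67 over the members (quartiles -1.01 and -0.36) and 0.08 over all genes tested. At least a 2-fold reduction was measured for 20 members, all of them called.

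Summed over the 77 genes, the level was 1438, 1335 and 1336 CPM in APAP Cxcr4+ cells (1370 ± 59.1, SD, n = 3) against 2193 CPM in control cells (n = 1), a ratio of 0.625. All APAP sums lay below the control. Summed over 9554 other genes of 783 to 2080 bases, the middle range of member lengths, the same ratio was 0.677. As a share of all counts, the members took 0.150%, 0.138% and 0.138% after APAP against 0.197% in the control. Control levels lay above all 3 APAP libraries for 70 members, below all 3 for 4 and within their range for 3. Among all genes tested, 39.2% had the control above all APAP libraries and 45.7% had it below.

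**Figure D1:**
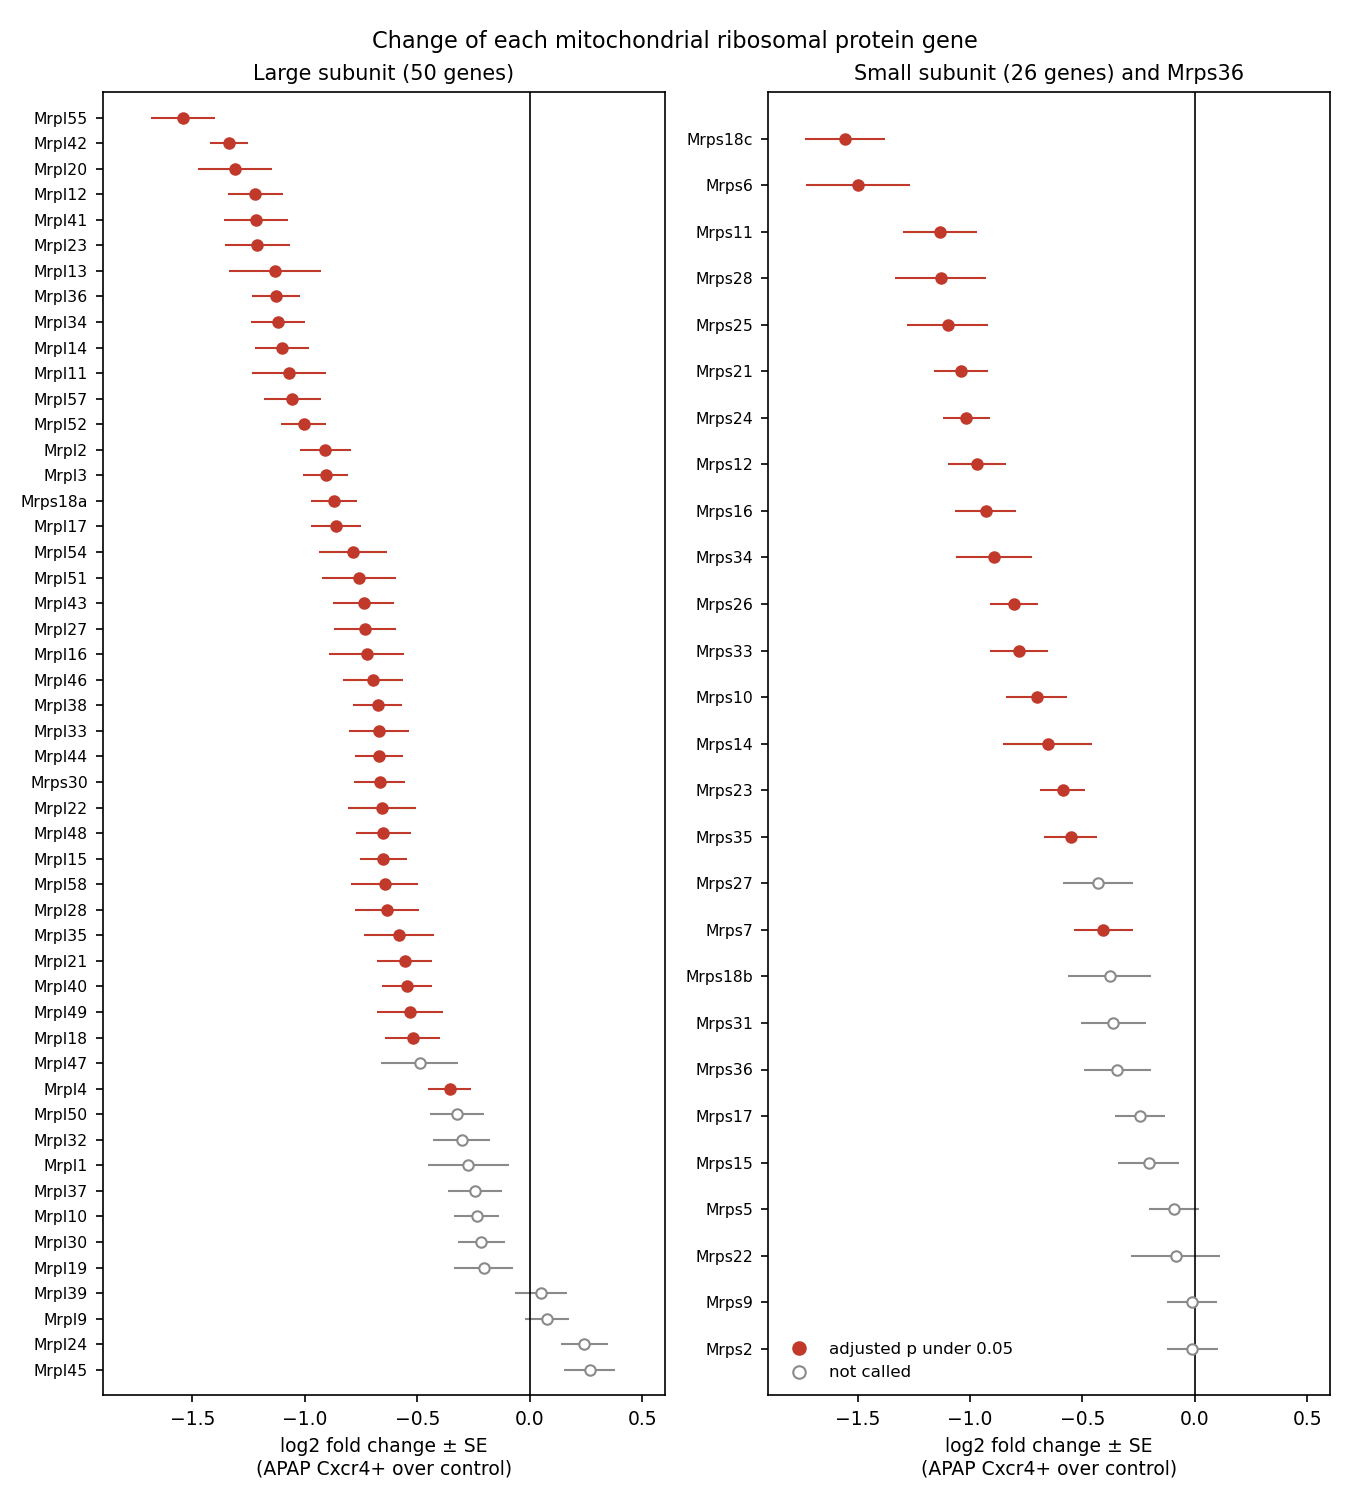
Log2 fold change (APAP Cxcr4+ over control, horizontal axis) with its SE for each mitochondrial ribosomal protein gene, ordered within the large subunit (left) and the small subunit with Mrps36 (right). Filled red points passed the test at an adjusted p under 0.05 and open grey points did not; all 55 red points lie left of 0.

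The proteins of the large subunit were lower in 38 of 50 cases and those of the small subunit in 17 of 26. Their medians were -0.67 and -0.68, and their summed levels in the APAP libraries were 0.613 and 0.649 of the control. By descent, 33 of 46 members with a bacterial homologue and 22 of 30 mitochondria-specific members fell, with medians of -0.69 and -0.67. No test between these classes was run.

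**Figure D2:**
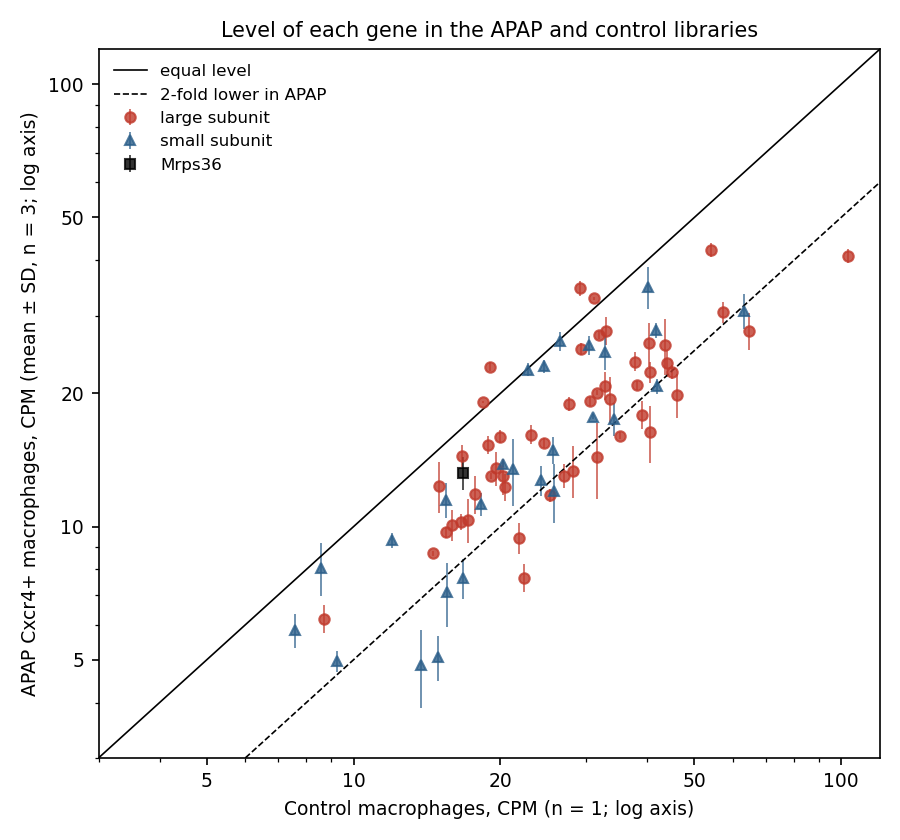
Level of each gene in the APAP libraries (mean ± SD of CPM, n = 3, vertical log axis) against its level in the control library (CPM, n = 1, horizontal log axis), for large subunit (circles), small subunit (triangles) and Mrps36 (square). The solid line marks equal levels and the dashed line a 2-fold lower level in APAP; 70 of the 77 genes lie below the solid line by all 3 APAP values.

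Promoter sequence is shown for a few members that fell and a few that did not pass the test, picked with their calls known. Factors known to drive genes of the mitochondrial ribosome include NRF1, the ETS family protein GABP and YY1. The words GCGCANGCG (NRF1; CGCNTGCGC on the other strand), CCGGAAG (ETS family; CTTCCGG) and AAGATGGCG (YY1; CGCCATCTT) were searched on both strands in the 300 bases from 250 before to 50 after the start of each gene. RefSeq promoters (build GRCm38.p6) were matched for 68 members, and 40 of them held at least 1 of the words. Below, the 100 bases before the start are printed in the direction of transcription, with matches in capitals; the capitals of Mrpl9 cover a match on each strand that overlap. In the printed bases, Mrpl12 and Mrps21, which fell, hold the NRF1 word, and Mrpl52 and Mrpl43, which also fell, hold the ETS word. Mrpl9 and Mrpl45, which did not pass the test, hold the NRF1 word. Mrps21 also holds the ETS word in the 300 bases searched, outside its printed stretch. Mrps22 and Mrps27, not printed, did not pass the test and hold the ETS word in the same 100 bases.
Mrpl12, chr11:120484537-120484636, plus strand: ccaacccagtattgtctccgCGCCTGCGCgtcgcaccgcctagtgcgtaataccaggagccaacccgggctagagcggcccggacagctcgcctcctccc
Mrps21, chr3:95871515-95871614, minus strand: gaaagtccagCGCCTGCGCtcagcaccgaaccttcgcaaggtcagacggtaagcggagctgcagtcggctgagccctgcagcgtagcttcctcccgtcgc
Mrpl52, chr14:54426809-54426908, plus strand: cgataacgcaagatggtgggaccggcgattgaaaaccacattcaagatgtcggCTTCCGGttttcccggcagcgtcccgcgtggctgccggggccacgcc
Mrpl43, chr19:45006443-45006542, minus strand: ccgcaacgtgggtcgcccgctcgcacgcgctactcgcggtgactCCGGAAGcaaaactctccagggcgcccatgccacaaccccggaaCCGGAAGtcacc
Mrpl9, chr3:94443236-94443335, plus strand: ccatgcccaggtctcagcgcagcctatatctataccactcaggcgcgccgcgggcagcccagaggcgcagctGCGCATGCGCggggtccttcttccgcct
Mrpl45, chr11:97315616-97315715, plus strand: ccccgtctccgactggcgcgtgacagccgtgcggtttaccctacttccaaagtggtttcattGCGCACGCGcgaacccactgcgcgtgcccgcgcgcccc

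The NRF1 word was found in 8 of 47 members called lower (17.0%) and in 8 of 21 not called (38.1%), against 12.4% of the promoters of all tested genes that were matched and 6.47% of all promoters in the table. For the ETS word the counts were 21 of 47 (44.7%) and 3 of 21 (14.3%), against 16.8% of the promoters of tested genes and 9.12% of all promoters. YY1's word was found in 6 of 47 (12.8%) and 2 of 21 (9.52%), against 2.87% and 1.49%. The words were chosen with the calls known and no test was run. A match is a run of letters and not a measured binding site.

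The regulators behind these words were measured in the same libraries. Gabpb2, a beta subunit of GABP, stood at 103, 107 and 100.4 CPM in APAP Cxcr4+ cells against 49.5 CPM in control cells, and rose (log2 fold change 1.06, SE 0.10, edgeR adjusted p = 0.00138). Gabpa, the DNA-binding subunit of GABP, rose by 0.66 (SE 0.09, adjusted p = 0.00387), and Yy1 rose by 0.60 (SE 0.09, adjusted p = 0.00413). Corrected for a trend of the fold changes over transcript length and GC content, Yy1 had a log2 fold change of 0.26 and did not pass the test (adjusted p = 0.0534; 6.5e-06 to 0.143 over all alternatives tried). Nrf1 stood at 34.7, 34.9 and 34.1 CPM in APAP Cxcr4+ cells against 33.7 CPM in control cells and did not pass the test (0.04, SE 0.09, adjusted p = 0.77). Of 10 regulators of mitochondrial biogenesis, 3 rose and 1 fell, against 25.4% and 18.9% of all genes tested. The one that fell was Esrra, an orphan nuclear receptor of mitochondrial genes (log2 fold change -0.75, adjusted p = 0.00762). The 10 regulators had a median transcript length of 3544 bases. Of genes outside the members with 3000 bases and over, 42.8% were called higher. The part of these regulators in the result was not tested.

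The largest falls came from both subunits. Mrps18c (ENSMUSG00000016833), a homologue of bacterial S18 on the platform of the small subunit, stood at 5.73, 4.88 and 4.59 CPM in APAP Cxcr4+ cells against 14.9 CPM in control cells (log2 fold change -1.56, SE 0.18, edgeR adjusted p = 0.00225). Mrps6 (ENSMUSG00000039680), which sits beside it, stood at 4.42, 4.19 and 5.99 CPM in APAP Cxcr4+ cells against 13.8 CPM in control cells (-1.50, SE 0.23, adjusted p = 0.005). For both genes, picked as large falls, every APAP library lay well below the control. The control lay above all APAP libraries for 39.2% of all genes tested. Exons of Mrps18c and Mrps6 overlap exons of Gm43511 and Slc5a3 on the same strand, so reads there could belong to either gene. Another platform protein, Mrps11, the S11 homologue, stood at 8.47, 7.61 and 6.88 CPM in APAP Cxcr4+ cells against 16.8 CPM in control cells, and fell by 1.13 (SE 0.17, adjusted p = 0.00426). Mrps11 shares exon sequence with Mrpl46 on the opposite strand. Summed over these 3 platform genes, the level was 18.6, 16.7 and 17.4 CPM in APAP Cxcr4+ cells against 45.5 CPM in control cells.

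In the large subunit, Mrpl55 (ENSMUSG00000036860) stood at 8.28, 7.17 and 7.54 CPM in APAP Cxcr4+ cells against 22.3 CPM in control cells (log2 fold change -1.54, SE 0.14, edgeR adjusted p = 0.00144). The protein is now regarded as the counterpart of bacterial L31. Mrpl42 (ENSMUSG00000062981), a protein added in mitochondria, stood at 42.6, 40.0 and 40.3 CPM in APAP Cxcr4+ cells against 104 CPM in control cells (-1.34, SE 0.09, adjusted p = 0.000933). Its adjusted p was the smallest of all members. Mrpl20 (ENSMUSG00000029066), whose bacterial homologue is needed early in assembly of the large subunit, stood at 19.0, 14.4 and 15.6 CPM in APAP Cxcr4+ cells against 40.5 CPM in control cells (-1.31, SE 0.17, adjusted p = 0.00292). In none of these 3 genes, picked as large falls, did the groups overlap. Among all genes tested, 39.2% had the control above all APAP libraries and 45.7% below. Mrpl41 (ENSMUSG00000036850), another mitochondria-specific protein, stood at 10.3, 9.08 and 8.87 CPM in APAP Cxcr4+ cells against 21.9 CPM in control cells (-1.22, SE 0.14, adjusted p = 0.00242). Here too the control lay above every APAP library.

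**Figure D3:**
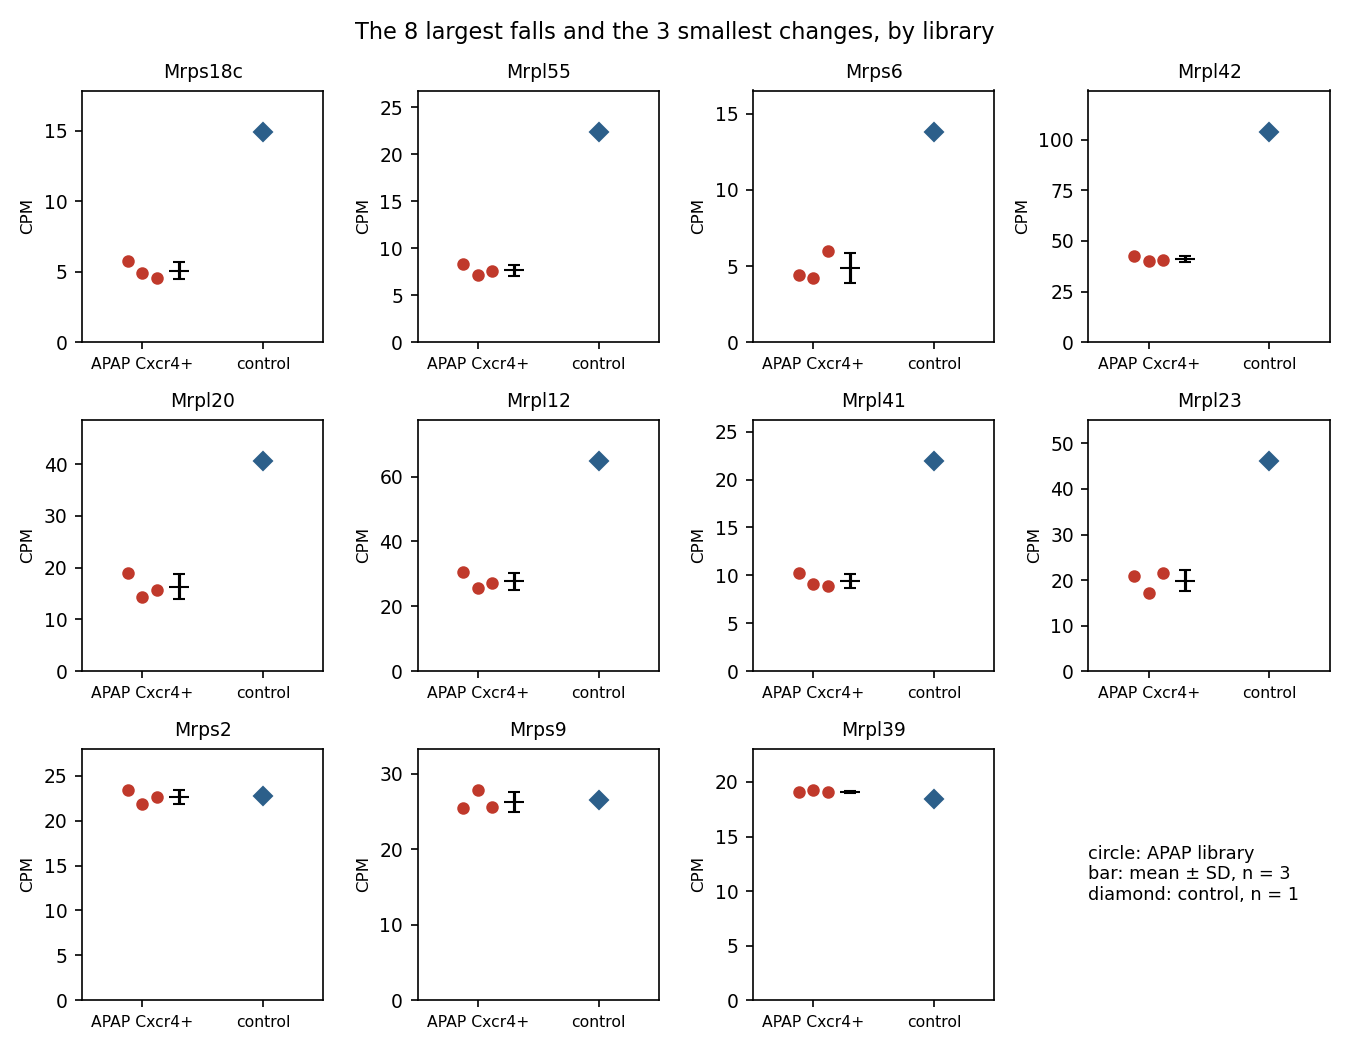
CPM of each library (vertical axes from 0) for the 8 largest falls (Mrps18c to Mrpl23) and the 3 smallest changes (Mrps2, Mrps9, Mrpl39), with APAP Cxcr4+ libraries as circles and their mean ± SD (n = 3) to the left of the single control library (diamond). The control lies above every APAP library for the 8 falls, and within or next to their range for the other 3.

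Members were also grouped by the place of their protein in the ribosome, a grouping made with their values known. The stalk of the large subunit recruits translation factors. Mrpl12, its flexible part (ENSMUSG00000039640), stood at 30.6, 25.5 and 27.1 CPM in APAP Cxcr4+ cells against 64.6 CPM in control cells (log2 fold change -1.22, SE 0.12, edgeR adjusted p = 0.00169). Mrpl11, at the base of the stalk, fell by 1.07 (SE 0.16, adjusted p = 0.00496). Mrpl10, which anchors Mrpl12 in the same stalk, stood at 27.6, 27.1 and 26.6 CPM in APAP Cxcr4+ cells against 31.9 CPM in control cells, and its log2 fold change of -0.24 did not pass the test (adjusted p = 0.105). Corrected for length and GC content, it was 0.09, with the opposite sign, and was not called. The difference between Mrpl10 and Mrpl12 was not tested.

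Around the peptidyl transferase centre, where peptide bonds are made, all 5 members assigned there fell. They were Mrpl2 (-0.91), Mrpl3 (-0.91), Mrpl27 (-0.73), Mrpl16 (-0.72) and Mrpl4 (-0.36), as log2 fold changes, and their summed level was 124, 115 and 118 CPM in APAP Cxcr4+ cells against 193 CPM in control cells. Mrpl4 had a log2 fold change of 0.03 after the length and GC correction and was not called there, and it was not called either when the second or when the third APAP library was left out. Mrpl16 was not called without the second. All 6 members of the central protuberance, the ridge facing the small subunit, fell as well, with log2 fold changes between -0.70 for Mrpl46 and -0.52 for Mrpl18. After the length and GC correction 4 of these 6 were not called: Mrpl46 (-0.39), Mrpl18 (-0.36), Mrpl38 (-0.31) and Mrpl40 (-0.26). Mrpl18, Mrpl40 and Mrpl46 were also not called without the second APAP library. Among them Mrpl58, which retains the peptide release activity of its bacterial relatives, fell by 0.64 (SE 0.15, edgeR adjusted p = 0.0182).

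The exit tunnel, through which the new chain leaves towards the inner membrane, held the widest range of the roles grouped here. Mrpl23 (ENSMUSG00000037772), at the tunnel mouth, stood at 20.9, 17.3 and 21.5 CPM in APAP Cxcr4+ cells against 46.1 CPM in control cells (log2 fold change -1.21, SE 0.14, edgeR adjusted p = 0.00245). A pseudogene listed apart, Mrpl23-ps1, had 92, 118 and 91 counts in APAP Cxcr4+ cells against 255 counts in control cells, and reads could be split between it and Mrpl23. Mrpl22, which lines the tunnel, fell by 0.66 (SE 0.15, adjusted p = 0.0177), and Mrpl47 at -0.49 did not pass the test (adjusted p = 0.0626). Corrected for length and GC content, Mrpl47 was called lower (-0.66, adjusted p = 0.0294; up to 0.497 over all alternatives tried). Mrpl45, which tethers the particle to the inner membrane, stood at 23.2, 23.3 and 22.3 CPM in APAP Cxcr4+ cells against 19.1 CPM in control cells (0.27, SE 0.11, adjusted p = 0.103). Mrpl24 stood at 33.1, 35.9 and 34.7 CPM in APAP Cxcr4+ cells against 29.2 CPM in control cells (0.24, SE 0.10, adjusted p = 0.109). In both the control lay below every APAP library, without passing the test. The control lay below all APAP libraries for 45.7% of all genes tested.

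In the head of the small subunit, 3 of 4 members fell. They were Mrps10 (-0.70), Mrps14 (-0.65) and Mrps7 (-0.41), the last with an adjusted p of 0.0499 (edgeR), the highest among the members called. Mrps7 was called in 5 of 12 alternatives, and neither by DESeq2 nor by limma-voom, and its log2 fold change was -0.16 after the length and GC correction. Mrps10 and Mrps14 were not called without the second APAP library, nor was Mrps14 after the correction. At the decoding site and along the path of the messenger, Mrps12, the homologue of the bacterial protein that monitors codon pairing, stood at 19.2, 16.9 and 16.5 CPM in APAP Cxcr4+ cells against 34.3 CPM in control cells (log2 fold change -0.97, SE 0.13, adjusted p = 0.00327). Mrps24 fell by 1.02 (SE 0.10, adjusted p = 0.00174). Mrps5, a neighbour at the messenger entrance, did not pass the test (-0.09, SE 0.11, adjusted p = 0.512), but was called lower once corrected for length and GC content (-0.40, adjusted p = 0.0353; up to 1 over all alternatives tried).

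Per kilobase of transcript, members spanned a wide range of levels, 1.84 to 68.8 CPM per kb (median 11.2) after APAP and 2.59 to 157 CPM per kb (median 19.0) in the control. Their order was much alike in both groups (Spearman rho 0.938 across the 77 genes, which share transcript lengths in both values and are no independent replicates). Highest per kilobase over all libraries were Mrps21, Mrpl42, Mrpl52 and Mrpl20, all of which fell. This order includes the control and so favours genes that are high there. In the APAP libraries alone, Mrpl30 (38.1 CPM per kb) and Mrps15 (37.2), which did not pass the test, stood above Mrpl20 (33.1). Mrps21 stood at 31.1, 33.4 and 27.7 CPM in APAP Cxcr4+ cells against 63.2 CPM in control cells (log2 fold change -1.04, SE 0.12, edgeR adjusted p = 0.00236), which is 68.8 and 142 CPM per kb. Mrpl52, a mitochondria-specific protein of the large subunit, stood at 23.2, 21.6 and 22.4 CPM in APAP Cxcr4+ cells against 45.0 CPM in control cells (-1.01, SE 0.10, adjusted p = 0.0017). The control lay above every APAP library for both genes, as for 39.2% of all genes tested.

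Among the 22 members that did not pass the test, 18 had a negative and 4 a positive log2 fold change. The smallest changes were in Mrps2, Mrps9 and Mrpl39. Mrps2, the S2 homologue of the small subunit, stood at 23.4, 21.8 and 22.7 CPM in APAP Cxcr4+ cells against 22.8 CPM in control cells (-0.01, SE 0.11, edgeR adjusted p = 0.945). Mrps9, in the head, stood at 25.5, 27.8 and 25.5 CPM in APAP Cxcr4+ cells against 26.5 CPM in control cells (-0.01, SE 0.11, adjusted p = 0.938). For these 2 genes the control lay within the range of the APAP libraries. Mrpl39, a large subunit protein related to threonyl-tRNA synthetase, stood at 19.0, 19.2 and 19.0 CPM in APAP Cxcr4+ cells against 18.5 CPM in control cells (0.05, SE 0.11, adjusted p = 0.744). Mrpl9, at the base of the L1 stalk, did not pass either (0.08, SE 0.10, adjusted p = 0.544). Mrps36, outside the ribosome, stood at 14.5, 12.3 and 12.9 CPM in APAP Cxcr4+ cells against 16.8 CPM in control cells (-0.34, SE 0.15, adjusted p = 0.107), and was called lower without the first APAP library (-0.42, adjusted p = 0.0354; up to 0.837 over all alternatives tried).

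The APAP libraries were close to each other. The median SD of log2 CPM over the 3 libraries was 0.09 for the members and 0.17 for all genes tested. These medians were not matched for level: members had at least 222 counts per library, and the filter's minimum count was 10. The first APAP library had the highest value of the 3 for 51 members, and its median log2 ratio to the control was -0.63, against -0.74 and -0.73 for the other two. Levels below the control were found for 71, 72 and 73 members in the 3 libraries. The widest spread was in Mrps6, Mrpl13 and Mrps14. Mrpl13, a large subunit protein, stood at 17.6, 13.2 and 12.3 CPM in APAP Cxcr4+ cells against 31.5 CPM in control cells (log2 fold change -1.13, SE 0.21, edgeR adjusted p = 0.00846). Mrps14 stood at 16.2, 12.2 and 12.1 CPM in APAP Cxcr4+ cells against 21.2 CPM in control cells (-0.65, SE 0.20, adjusted p = 0.0415), and did not pass the test without the second APAP library (-0.59, adjusted p = 0.115; 0.00208 to 0.238 over all alternatives tried). In both, the first APAP library stood nearest to the control. Without the second APAP library 40 members were called lower, against 60 and 53 without either of the others.

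Proteins of the same particle that carry other names moved in part with it. Of 5 tested, Chchd1, Aurkaip1 and Gadd45gip1 fell, and Dap3 and Ptcd3, both of the small subunit, had log2 fold changes of 0.01 and 0.12 that did not pass the test. Chchd1, a small subunit protein, stood at 19.1, 16.5 and 17.1 CPM in APAP Cxcr4+ cells against 45.6 CPM in control cells (-1.38, SE 0.12, edgeR adjusted p = 0.00127). Gadd45gip1 had an adjusted p of 0.0559 without the second APAP library (0.00306 to 0.0678 over all alternatives tried). Of the RNAs of the particle, the small ribosomal RNA mt-Rnr1 stood at 142, 159 and 157 CPM in APAP Cxcr4+ cells against 208 CPM in control cells (-0.44, SE 0.10, adjusted p = 0.0181; 0.0654 without the second APAP library and 0.00195 to 0.673 over all alternatives tried). The large ribosomal RNA mt-Rnr2 stood at 440.4, 442 and 343 CPM in APAP Cxcr4+ cells against 410.2 CPM in control cells (-0.01, SE 0.17, adjusted p = 0.978). Corrected for length and GC content, mt-Rnr2 had a log2 fold change of -0.75 (adjusted p = 0.0171, the lowest over all alternatives tried). The libraries were made with an mRNA kit, and selection for messenger RNA can distort the level of ribosomal RNA.

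The machinery that builds and serves the mitochondrial ribosome did not fall as a block. Measured were 69 other genes of mitochondrial translation (assembly factors, translation factors, synthetases and the ribosomal proteins with other names), not all of which passed the count filter. Of these, 15 fell and 11 rose, against the 18.9% and 25.4% of all genes tested given above. Of 30 genes of assembly and ribosomal RNA modification, 29 were tested, of which 7 fell and 2 rose (median -0.11). Mpv17l2, which is needed for assembly of the particle, stood at 20.3, 19.6 and 17.8 CPM in APAP Cxcr4+ cells against 33.4 CPM in control cells (log2 fold change -0.80, SE 0.12, edgeR adjusted p = 0.00492). Rcc1l at -0.85 and the ribosomal RNA methyltransferase Mrm1 at -0.85 also fell. Grsf1, an RNA-binding protein of mitochondrial RNA granules, rose by 0.57 (SE 0.10, adjusted p = 0.00672). Without the second APAP library 3 of the 29 fell, and corrected for length and GC content 3 fell and 4 rose.

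Translation factors had more rises than falls. Of 14 tested, 7 rose and 2 fell (median 0.22), against 25.4% and 18.9% of all genes tested. Their median transcript length was 2290 bases. Of genes outside the members with 2000 to under 3000 bases, 21.9% were called higher and 17.1% lower. Gfm2, the elongation factor G of ribosome recycling, stood at 29.8, 29.6 and 29.9 CPM in APAP Cxcr4+ cells against 19.4 CPM in control cells (log2 fold change 0.62, SE 0.11, edgeR adjusted p = 0.00695). Guf1, the mitochondrial homologue of bacterial elongation factor 4, rose by 0.79 (SE 0.15, adjusted p = 0.0104). The release factor Mtrf1l rose by 0.90 (SE 0.18, adjusted p = 0.0108), and Mtfmt, which formylates the initiator methionine, by 0.70 (SE 0.15, adjusted p = 0.0142). The 2 that fell, picked after their values were seen, were Mrrf (-0.69), the ribosome recycling factor, and Tsfm (-0.66), the exchange factor of the elongation factor Tufm. Corrected for length and GC content, Tsfm had a log2 fold change of -0.33 and was not called. Without the second APAP library 3 rose and 0 fell, and in a test against a log2 change of 0.5 neither a rise nor a fall was called.

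Of 20 mitochondrial aminoacyl-tRNA synthetases and related genes, 2 rose and 3 fell (median -0.10), against 25.4% and 18.9% of all genes tested. Lars2, the leucyl-tRNA synthetase, stood at 45.1, 53.3 and 46.5 CPM in APAP Cxcr4+ cells against 214 CPM in control cells (log2 fold change -2.15, SE 0.11, edgeR adjusted p = 0.000841), a larger fall than that of any Mrp gene. Iars2, for isoleucine, rose by 0.67 (SE 0.13, adjusted p = 0.0117). Wars2, for tryptophan, rose by 0.71 and Gatb, a subunit of the amidotransferase that makes glutaminyl-tRNA, fell by 0.52, and neither passed the test without the second APAP library (adjusted p = 0.1 and 0.105), when 1 of the 20 rose and 1 fell. Over all alternatives tried, their adjusted p ran from 0.00599 to 0.174 and from 0.0124 to 0.425.

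Most messengers that the mitochondrial ribosome translates were lower as well. Of the 13 messengers encoded on mitochondrial DNA, 10 fell, and the median log2 fold change was -0.73. Their summed level was 21430, 21960 and 18700 CPM in APAP Cxcr4+ cells against 31740 CPM in control cells. The complex I subunit mt-Nd3 stood at 96.8, 101 and 77.7 CPM in APAP Cxcr4+ cells against 218 CPM in control cells (-1.25, SE 0.15, edgeR adjusted p = 0.00251). Other falls were those of mt-Nd2 (-1.02), the cytochrome oxidase subunit mt-Co3 (-0.93) and the ATP synthase subunit mt-Atp6 (-0.78), which overlaps mt-Atp8. Without the second APAP library 6 of 13 fell, and corrected for length and GC content 12 fell, with a median of -1.31. Of 10 genes that copy and transcribe mitochondrial DNA, 3 fell and 1 rose, against 18.9% and 25.4% of all genes tested. The rise was that of the DNA polymerase Polg (0.60, edgeR adjusted p = 0.0103). Among the falls was Top1mt, the mitochondrial topoisomerase (-0.96, edgeR adjusted p = 0.00704). The others that fell were Tefm (-0.65, adjusted p = 0.0424) and Tfam (-0.35, adjusted p = 0.0485), neither of which passed by DESeq2 (adjusted p = 0.0511 and 0.0743; up to 0.245 and 0.898 over all alternatives tried). A single one of the 10 fell when the second APAP library was left out, and likewise for the third. Corrected for length and GC content Polg did not pass either (adjusted p = 0.149; 0.000415 to 0.188 over all alternatives tried).

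Proteins of the mitochondrial ribosome reach it through the import machinery of the outer and inner membranes. Of 25 tested import genes, 17 fell (median -0.65). Timm10, a chaperone of the space between the membranes, stood at 5.39, 4.56 and 4.64 CPM in APAP Cxcr4+ cells against 14.2 CPM in control cells (log2 fold change -1.55, SE 0.17, edgeR adjusted p = 0.00205). The outer membrane subunits Tomm5 and Tomm7 fell by 1.39 and 1.07, and Timm23, the channel of the inner membrane, by 0.97. The cytosolic ribosome had a median like that of the mitochondrial one. Of its 90 tested protein genes, 77 fell, with a median of -0.65, and their summed level was 25260, 26130 and 25160 CPM in APAP Cxcr4+ cells against 39750 CPM in control cells, a ratio of 0.642 against 0.625 for the Mrp genes.

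**Figure D4:**
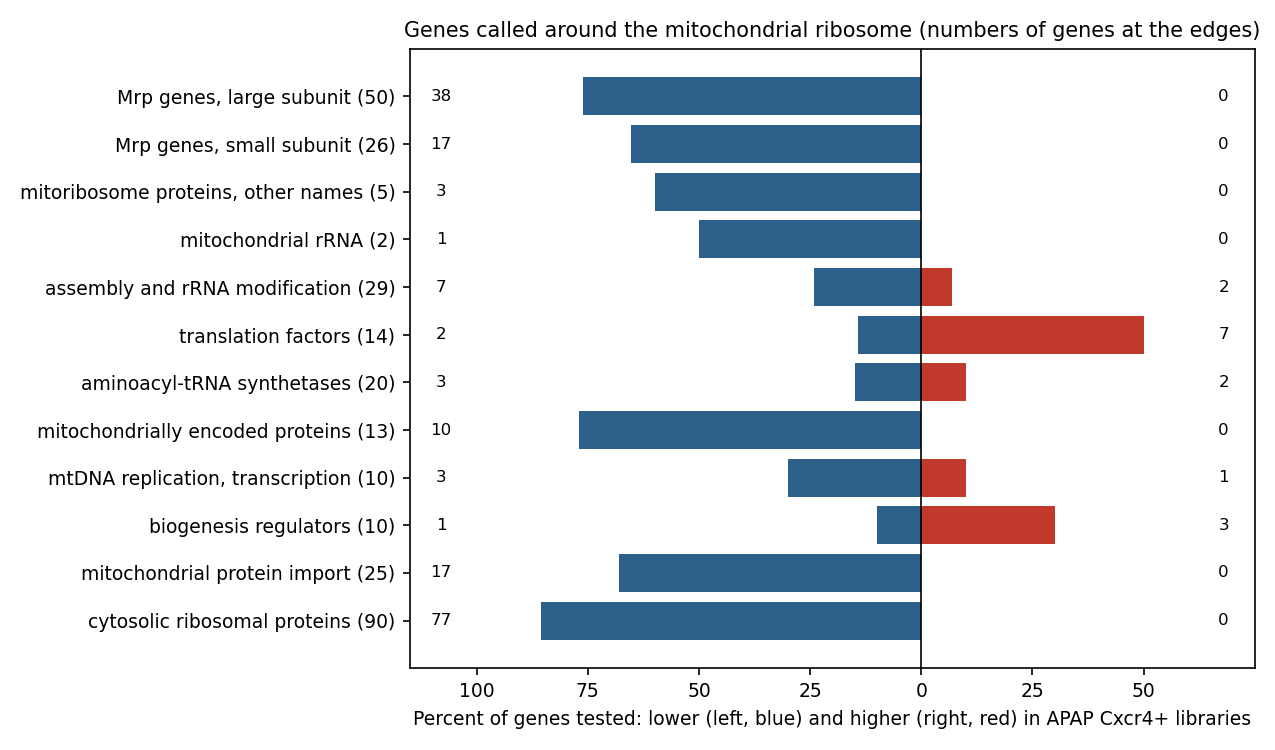
Percent of tested genes called lower (blue, left of 0) and higher (red, right of 0) in APAP Cxcr4+ libraries for the Mrp genes and the lists around them, with the number tested in parentheses and the numbers called at the edges. Falls without rises were called among Mrp genes, mitoribosome proteins with other names, mitochondrial rRNA, import genes, mitochondrially encoded proteins and cytosolic ribosomal proteins. Translation factors had 7 rises and 2 falls.

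Transcript length moved with the fold change. Across 18644 genes, longer genes had higher log2 fold changes of APAP over control (Spearman rho 0.26), and over the 77 members rho was 0.408. Between pairs of APAP libraries rho was 0.0238 to 0.0447. Genes are no independent replicates and no p is given. Among members shorter than 1000 bases, 24 of 29 (82.8%) fell, against 28.6% of the other genes of that length. From 1000 to under 2000 bases the shares were 20 of 28 (71.4%) and 27.3%, from 2000 to under 3000 bases 3 of 7 (42.9%) and 17.1%, and at 3000 bases and over 8 of 13 (61.5%) and 6.96%. In every class the share was higher among members, and the part of length in the size of their falls was not tested. Corrected for length and GC content, 47 members were called lower, 43 of them among the original 55, and the median was -0.57.

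**Figure D5:**
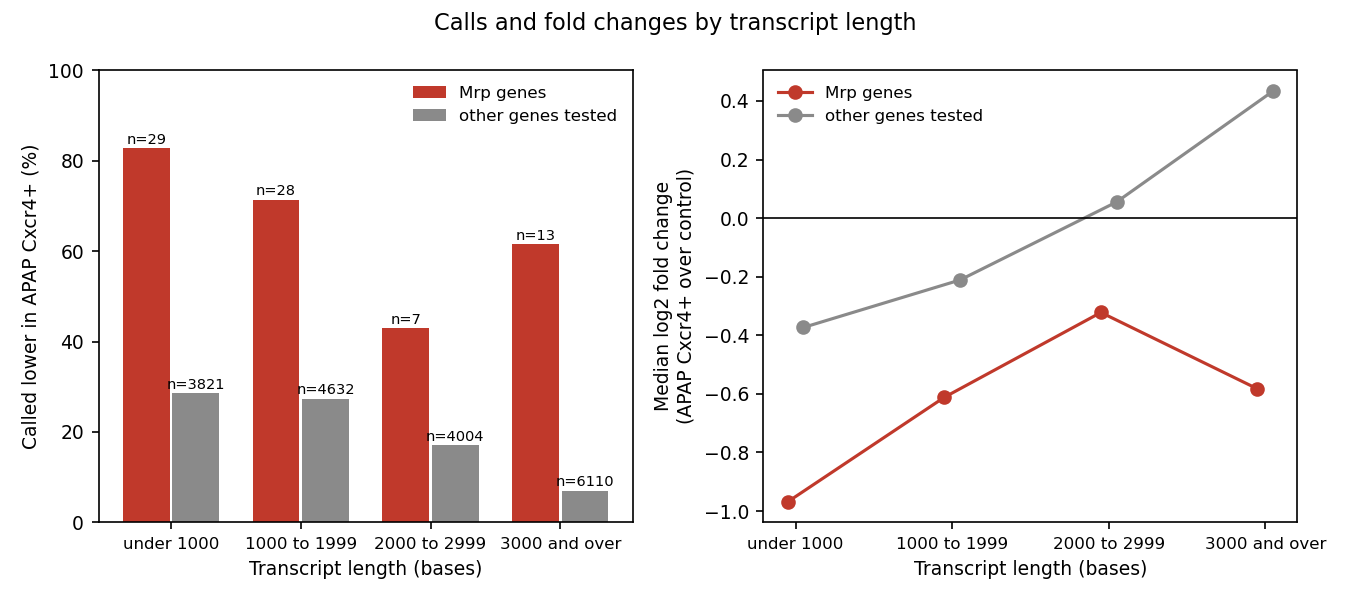
Percent of genes called lower in APAP Cxcr4+ (left) and median log2 fold change of APAP Cxcr4+ over control (right) by class of transcript length in bases, for Mrp genes (red) and all other genes tested (grey), with the number of genes above each bar. Members had a higher share of falls and a lower median in each class, and both sets had higher medians in the class that starts at 2000 bases than below it.

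The members lay in a moderate range of levels. Of 6406 other genes in the same range of mean level (6.03 to 56.6 CPM), 26.0% were called lower and 25.2% higher. Restricted also to the middle range of member lengths (783 to 2080 bases; 28.0% of all 6091 other genes of that length were called lower and 15.1% higher), 41.1% of 2066 other genes were called lower, with a median log2 fold change of -0.35. Of the 39 members in the same range of lengths, 27 (69.2%) were called lower, with a median of -0.64.

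Exons of 28 members overlap those of another gene in the annotation, 24 of them on the opposite strand of at least 1 gene, and the strand setting of the counting is not given in the sources used here. Of the 49 members without an overlap, 34 were called lower, with a median of -0.67. Mrpl3 and Mrps24, named above as falls, overlap Gm38077 and Urgcp on the same strand, so reads there could belong to either gene. Other named members overlap a gene on the opposite strand, among them Mrpl9, Mrpl10, Mrpl13, Mrpl18, Mrpl24, Mrpl27, Mrpl43, Mrpl47, Mrpl58 and Mrps7.

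Markers of other cells moved with the groups. All 25 hepatocyte markers were higher in the control than in every APAP library (summed 1619 to 2585 CPM in APAP Cxcr4+ cells against 4158 CPM in control cells), and 19 fell. B cell markers summed to 390.3 to 585 CPM in APAP Cxcr4+ cells against 69.6 CPM in control cells, and 8 of 8 rose. T cell markers summed to 89.7 to 118 CPM in APAP Cxcr4+ cells against 63.0 CPM in control cells, and 5 of 8 rose. Neutrophil markers summed to 214 to 395 CPM in APAP Cxcr4+ cells against 156 CPM in control cells, and 6 of 10 rose. Ngp, Camp and Ltf, which define neutrophil granules, had no reads in the control, and no other marker was at 0 in any library. The part of these cells in the fall of the Mrp genes was not tested.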

How the data were processed

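The authors deposited unnormalized read counts per Ensembl gene. Build mm39, HISAT2 and Subread are named in the submitters' processing notes; their versions, the annotation and the strand setting are not stated there. The library kit was Tecan universal plus mRNA-seq, per the labels. The APAP columns have no number of their own and are numbered 1 to 3 as they stand in the table. The members, lists, roles and words were chosen with earlier results of these data known.

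Counts were tested with edgeR 4.0.16 (R 4.3.3; filterByExpr, minimum count 10 and total 15; TMM factors 1.04, 1.03 and 1.03 for APAP and 0.90 for the control; quasi-likelihood F test; Benjamini-Hochberg adjustment over 18715 genes; threshold 0.05). Residual degrees of freedom were 2, and the lone control is assumed to vary like the APAP libraries. CPM use these scaled totals, and SE is the size of the log2 fold change over the root of F. Member counts ran from 222 to 4653 per library. Transcript lengths, GC contents and exon overlaps came from GENCODE vM21 and promoters from RefSeq, both of another build than the files, so no other coordinates are given. Length is the median over a gene's protein-coding transcripts. Rows named as pseudogenes (4) were kept apart; reads shared with them could be split. All libraries differed from each other by more than sampling noise. The edgeR script was tested on simulated data.

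Named were, among members, the 8 largest falls and rises, the 4 highest per kb, the 3 widest over APAP libraries, the 3 smallest changes and Mrps36, and up to 4 genes per other list by p; members of the 7 roles, and others said to be so, were picked after their values were seen. Alternatives were DESeq2 (1.42.0) size factors and Wald test, upper-quartile factors, limma-voom (3.58.1), no and a stricter filter (5 CPM), a test against a log2 change of 0.5, a correction for length and GC content, scaling without ribosomal and mitochondrial genes, and leaving out each APAP library.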

Additional observations from a re-analysis of the deposited data

How the results depend on the processing

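Calls of the Mrp genes kept to between 54 and 55 falls under the other scalings, filters and tools (DESeq2, limma-voom), and 37 members were called lower under every alternative except the test against a log2 change of 0.5. That test called 28 members lower (17 large and 11 small subunit), 1495 of all genes lower and 2701 higher, and 4 other mitochondrial translation genes lower and 0 higher. The length and GC correction gave a member median of -0.57 and 9 other translation genes lower. The stricter filter, with fewer genes tested, called 3097 of all genes higher, and unscaled library totals gave a summed control level of 1973 CPM. Leaving out 1 APAP library gave 40 to 60 members lower, 2022 to 4185 of all genes lower and 2979 to 5195 higher, and 6 to 17 other translation genes lower and 6 to 12 higher. The lowest of these counts came without the second APAP library. Signs turned for Mrpl4 (0.0292 after the length and GC correction, though called lower without it), Mrpl10 (0.0923 after correction), Mrps2 (0.0201 without a filter, -0.0354 to 0.0148 leaving out libraries), Mrps9 (0.0186 without a filter, 0.10 after correction, -0.0537 to 0.0232 leaving out libraries), Mrpl39 (-0.0431 after correction), Dap3 (-0.0154 with upper-quartile factors, -0.0686 to 0.0947 leaving out libraries) and mt-Rnr2 (0.0244 without a filter, -0.0663 to 0.1205 leaving out libraries). After the correction signs also turned for Mrps15 (0.12), Mrpl37 (0.07) and Mrps22 (0.009), which were not called there. The causes were not tested. No count filter moved the median of all genes to 0.53. A single control limits every value. No paired analysis was possible because the control is 1 library without a replicate number.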
